A study of Rattus norvegicus with 17 samples.

Results

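The interleukin-1 family and its receptors were followed as 10 genes, Il1a, Il1b, Il18 and Il33 (ligands), Il1rn (antagonist), Il1r1, Il1rap and Il1r2 (receptors), Il18bp (binding protein) and Casp4 (protease). They were chosen by symbol from the 17251 genes of the deposited table, and all 10 were listed and passed the filter on low values. RNA was sequenced from the meibomian gland (MG), the oil gland of the eyelid, of 17 female rats aged 10 to 12 weeks. Control WT (n = 4) were wild-type rats and Control P1.hMR (n = 5) were transgenic rats, both without irradiation, while UVB WT (n = 3) and UVB P1.hMR (n = 5) had received ultraviolet B on the eyelids for 5 days. P1.hMR rats are Sprague-Dawley rats that carry the human mineralocorticoid receptor (MR) under the proximal P1 promoter of NR3C2, a promoter active wherever MR is made and with a strength that varies among organs, so the transgene was not restricted to the MG. The library was taken as the replicate because each column is 1 labelled sample, taken here as 1 rat. The methods count the irradiated groups in eyes. Per the study's reporting summary, both eyes of an animal, where used, were pooled into 1 sample. The labels do not state that the rats came from separate litters or cages, so the p-values measure the spread between these libraries.

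IL-1α and IL-1β bind the receptor IL-1R1, which recruits the accessory protein IL-1RAP and signals through MyD88 to NF-κB and the MAP kinases. IL-1Ra, encoded by Il1rn, occupies IL-1R1 without signalling, and IL-1R2 is a decoy that binds ligand but lacks a signalling domain. IL-1β and IL-18 are made as precursors that inflammasome caspases cleave, whereas IL-1α and IL-33 are active alarmins that damaged epithelium releases. IL-18BP neutralises IL-18, and caspase-4 (caspase-11 in the mouse) senses cytosolic lipopolysaccharide and cleaves gasdermin D. In skin and the ocular surface these cytokines are early products of ultraviolet injury. Transcript level does not show cleavage or secretion.

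Values are TPM, a measure of transcript level that is scaled for transcript length and for the library total. Fold changes are differences of log2(TPM + 1) with the standard error (SE) of limma, and on this scale a low gene shows less than its full change. A gene counted as called when its Benjamini-Hochberg adjusted p was under 0.05 and its log2 fold change was 0.5 or more in size. The column sums ran from 804378 to 840817 TPM, and the number of reads behind each library is not given in TPM values. The human NR3C2 transcript was listed at 0 in the WT libraries and ranged from 5.31 to 9.31 TPM over the P1.hMR libraries. All 14 meibocyte markers were listed at 1 TPM or more in some rat, led by Scd (stearoyl-CoA desaturase) at a group mean of 25785 to 27692 TPM.

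RefSeq promoter windows (GRCr8, 250 bases before and 50 after the start) were matched for 8 of the 10 members, and not for Il1r2 and Casp4. The 250 bases before the start are shown for Il1b and Il1r1, the members called higher under UVB, and for Il1a, the gene beside Il1b, which was not called. Il1b lies at chr3:137036582-137036831 (minus strand), Il1a at chr3:136990018-136990267 (minus strand) and Il1r1 at chr9:50034133-50034382 (plus strand). Each is printed in the direction of transcription, and capitals mark a match to a searched motif.
Il1b: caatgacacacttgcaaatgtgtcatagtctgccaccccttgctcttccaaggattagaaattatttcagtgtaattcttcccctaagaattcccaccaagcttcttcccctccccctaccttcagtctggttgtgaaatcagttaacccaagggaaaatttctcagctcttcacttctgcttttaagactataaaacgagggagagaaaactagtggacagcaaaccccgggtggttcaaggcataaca
Il1a: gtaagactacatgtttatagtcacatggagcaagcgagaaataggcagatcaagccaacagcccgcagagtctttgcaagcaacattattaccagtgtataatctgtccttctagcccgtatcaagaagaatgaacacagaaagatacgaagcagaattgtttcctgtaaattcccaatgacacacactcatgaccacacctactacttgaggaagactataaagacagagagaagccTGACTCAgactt
Il1r1: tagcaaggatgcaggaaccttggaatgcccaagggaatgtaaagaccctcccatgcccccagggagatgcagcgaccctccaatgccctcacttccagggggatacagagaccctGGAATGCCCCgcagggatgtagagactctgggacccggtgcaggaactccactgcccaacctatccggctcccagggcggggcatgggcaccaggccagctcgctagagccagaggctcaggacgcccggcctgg
Both strands of each window were searched for the NF-κB consensus, for AP-1 (TGANTCA), and for the steroid receptor element AGAACA and its inverted repeat with a gap of 3 bases, the single element being contained in the repeat. The Il1r1 window held the NF-κB consensus as GGAATGCCCC, read on the reverse strand, and the Il1rap windows held it as GGGAAGCCCC. The Il1a window held AP-1 as TGACTCA just before the start, and the Il18 window held TGAATCA just after it. AGAACA was matched, as TGTTCT on the other strand, only in the Il18bp window, and no member's window held the inverted repeat. No searched motif was present in the windows of Il1b, Il33 and Il1rn. Of 33469 windows, 7.51% held the NF-κB consensus, 7.33% AP-1, 20.7% AGAACA and 0.0149% the inverted repeat. These matches describe the letters of the windows and not bound sites.

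In control glands the antagonist was the most abundant transcript of the family. Over the 9 control rats the median level was 43.76 TPM for Il1rn and 19.12 TPM for Il33, followed by Il1rap (9.71), Il1r2 (9.48), Il1r1 (7.06), Casp4 (5.19), Il18 (4.88), Il1a (4.79), Il18bp (4.10) and Il1b (2.13 TPM). The ranges of neighbours in that order overlapped except between Il1rn and Il33 and between Il33 and Il1rap, so neighbours below Il33 were not separated by the spread between rats. Members further apart could be, as Il1rap (9.49 to 11.47 TPM) was from Casp4 (4.52 to 6.21 TPM). Over the 8 UVB rats the medians of Il1rn (47.2 TPM) and Il33 (14.2 TPM) remained the highest, Il1r1 moved from rank 5 to rank 3 (11.8 TPM) and Il1b from rank 10 to rank 7 (4.92 TPM).

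**Figure D1:**
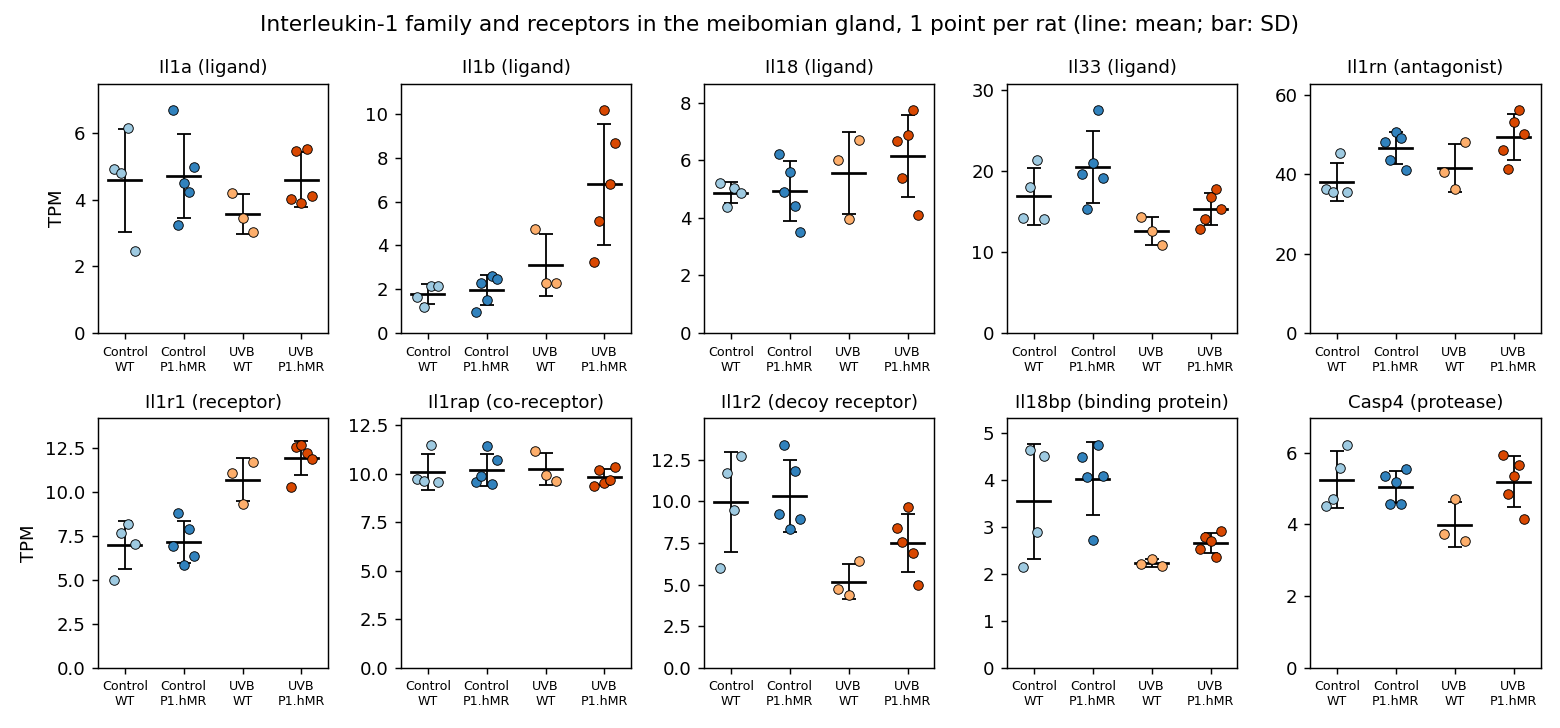
TPM of each member in the MG, with 1 point per rat, a line at the group mean and a bar of 1 SD, for Control WT (n = 4), Control P1.hMR (n = 5), UVB WT (n = 3) and UVB P1.hMR (n = 5); each panel starts at 0 and has its own scale. Il1r1 was at 9.31 TPM or more in the UVB rats and at 8.78 TPM or less in the control rats, and Il1b reached 10.16 TPM in a UVB P1.hMR rat.

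After 5 days of UVB the family did not move as a block. Il1b, the inducible ligand, and Il1r1, the signalling receptor, were higher, Il1r2, the decoy receptor, was lower, and Il1rn, Il1a, Il18 and Il1rap did not pass the test in either genotype. In WT rats 2 of 10 members were called, Il1r1 higher and Il1r2 lower, where 7.91% of the 13105 tested genes were called (3.92% higher and 3.98% lower). In P1.hMR rats 2 of 10 were called, Il1b and Il1r1, both higher, against 10.8% of all tested genes (5.05% higher and 5.71% lower). With the UVB effect averaged over the genotypes 3 of 10 were called (Il1b and Il1r1 higher, Il1r2 lower), against 9.48% of tested genes (4.6% higher and 4.88% lower). The members' median log2 fold change was -0.11 in the WT and 0.01 in the P1.hMR comparison, where that of all tested genes was 0.01 and -0.02. Groups without overlap were seen for Il1b and Il1r1 in each genotype, 2 of 10 members, where 26.6% of tested genes in WT and 27.2% in P1.hMR rats had none.

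The ligand Il1b, the inflammatory form of IL-1 made mainly by myeloid cells and also by stressed epithelium, was at 1.64, 1.2, 2.13 and 2.15 TPM in the Control WT rats. The Control P1.hMR rats were at 0.96, 2.29, 1.51, 2.58 and 2.45 TPM. UVB WT rats were at 4.73, 2.29 and 2.29 TPM, and UVB P1.hMR rats at 3.22, 5.11, 10.16, 6.78 and 8.68 TPM. All UVB P1.hMR rats were above all their controls, and 2 of the 3 UVB WT rats lay just above the highest WT control. By limma the log2 fold change was 1.35 (SE 0.25, adjusted p = 0.000479) in P1.hMR and 0.53 (SE 0.30, adjusted p = 0.222) in WT rats. The averaged UVB effect was 0.94 (SE 0.19, adjusted p = 0.000899). Without UVB WT replicate 1, the WT value was 0.26. Il1b was also the lowest member in control rats, so the pseudocount compressed its change most: with 0.1 in place of 1, the P1.hMR value was 1.72.

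No other ligand was called. Il1a, the alarmin encoded beside Il1b, ranged from 2.45 to 6.68 TPM in control and from 3.04 to 5.53 TPM in UVB rats, and its log2 fold change was -0.25 (SE 0.22) in WT and -0.01 (SE 0.18) in P1.hMR rats. Il18, which keratinocytes make constitutively, was at 3.50 to 6.22 TPM in control and 3.96 to 7.73 TPM in UVB rats, with an averaged value of 0.20 (SE 0.12, limma adjusted p = 0.18). In the RefSeq annotation Il18 overlaps Bco2 and Tex12, and Il1rn overlaps Il36b, so reads may have been shared where the library strand was not used. Il33, the nuclear alarmin of epithelium and endothelium, was at 14.01 to 27.45 TPM in control and 10.82 to 17.70 TPM in UVB rats. Its averaged log2 fold change of -0.38 (SE 0.11, limma adjusted p = 0.00906) passed the p but not the fold threshold, with nearly the same value in WT (-0.39) and P1.hMR rats (-0.38).

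**Figure D2:**
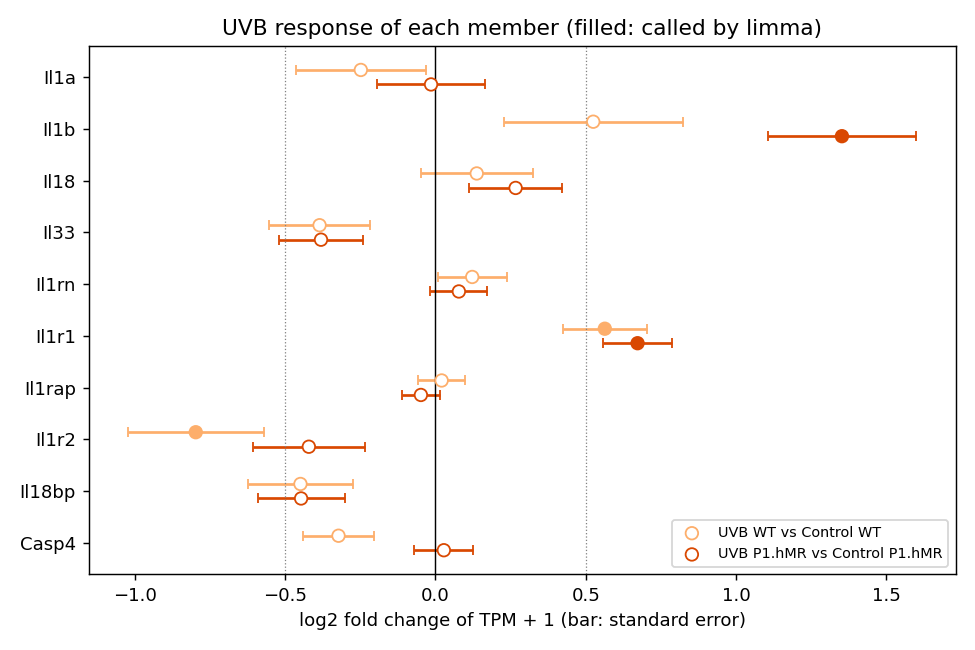
Log2 fold change of TPM + 1 under UVB (horizontal axis, bar: SE) for each member in WT rats (light) and P1.hMR rats (dark), filled where limma called the gene and with dotted lines at 0.5 and -0.5. Il1r1 was called in both genotypes, Il1b was called in P1.hMR rats (1.35, with 0.53 in WT) and Il1r2 in WT rats (-0.80, with -0.42 in P1.hMR); neither difference between the genotypes was called.

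The signalling receptor Il1r1 was at 5.01, 7.69, 8.16 and 7.06 TPM in Control WT and at 6.91, 8.78, 5.84, 7.88 and 6.34 TPM in Control P1.hMR rats. It was at 11.08, 9.31 and 11.68 TPM in UVB WT and at 10.26, 12.56, 12.66, 12.22 and 11.86 TPM in UVB P1.hMR rats. Every UVB rat was above every control rat, the only member of 10 of which this held, where 10.8% of tested genes separated the 8 UVB from the 9 control rats in either direction. The log2 fold change by limma was 0.56 (SE 0.14, adjusted p = 0.00958) in WT, 0.67 (SE 0.12, adjusted p = 0.000299) in P1.hMR and 0.62 (SE 0.09, adjusted p = 4.87e-05) averaged. The lowest control, Control WT replicate 1, carried part of the WT value: without it the fold change was 0.43, under the fold threshold, at an adjusted p of 0.0198.

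The co-receptor Il1rap, needed for signalling by IL-1, IL-33 and IL-36, was not called. It lay between 9.36 and 11.47 TPM in all 17 rats, and its averaged UVB effect was -0.01 (SE 0.05).

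The decoy Il1r2 went the other way from Il1r1. It was at 5.97, 11.70, 9.48 and 12.73 TPM in Control WT and at 9.22, 13.37, 8.33, 11.83 and 8.91 TPM in Control P1.hMR rats. UVB WT rats were at 4.74, 4.39 and 6.39 TPM and UVB P1.hMR rats at 8.42, 7.53, 9.68, 6.91 and 4.97 TPM. The groups overlapped in both genotypes, in WT because Control WT replicate 1 (5.97 TPM) lay under UVB WT replicate 3. The log2 fold change by limma was -0.80 (SE 0.23, adjusted p = 0.0195) in WT, -0.42 (SE 0.19, adjusted p = 0.0852) in P1.hMR and -0.61 (SE 0.15, adjusted p = 0.00285) averaged. The WT call was lost without Control WT replicate 2 or 4 or UVB WT replicate 1 or 2 (adjusted p 0.0546 to 0.0769), and was kept without each of the other 13 rats.

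The antagonist Il1rn was at 35.60 to 45.36 TPM in Control WT, 41.22 to 50.72 in Control P1.hMR, 36.37 to 48.26 in UVB WT and 41.30 to 56.16 TPM in UVB P1.hMR rats. Its averaged UVB effect was 0.10 (SE 0.07, limma adjusted p = 0.283). Il18bp, the IL-18 binding protein, was at 2.16, 4.64, 2.89 and 4.51 TPM in Control WT and at 4.50, 4.08, 2.73, 4.75 and 4.10 TPM in Control P1.hMR rats. All UVB rats lay between 2.17 and 2.92 TPM. The low controls, Control WT replicate 1 and Control P1.hMR replicate 3, made the groups overlap. The averaged value of -0.45 (SE 0.11, limma adjusted p = 0.00415) missed the fold threshold, and without Control WT replicate 1 it was -0.53 and called. Casp4, the protease, was at 4.52 to 6.21 TPM in control rats, 3.54 to 4.71 TPM in UVB WT and 4.14 to 5.94 TPM in UVB P1.hMR rats, and was not called in either genotype (-0.32, SE 0.12, limma adjusted p = 0.0637 in WT; 0.03, SE 0.10 in P1.hMR). Casp4 lies between the related genes Casp1 and Casp12, so reads of these paralogues could have been split.

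The balance of antagonist or decoy to its partner was computed in each rat as the difference of the log2(TPM + 1) values. Averaged over the genotypes, the decoy fell under UVB relative to the signalling receptor and the antagonist relative to Il1b. Il1r2 to Il1r1 was between 0.19 and 0.77 in the 9 control rats, that is, the decoy was the more abundant in each, and between -1.11 and -0.26 in the 8 UVB rats, where the receptor was. The difference was -1.23 averaged over the genotypes (two-sided exact permutation test within genotype, p = 0.000227, the smallest it can give, adjusted over 4 ratios 0.000907). It was -1.09 in P1.hMR rats (exact p = 0.00794, adjusted 0.0159) and -1.36 in WT rats, where the exact p of 0.0571 was the smallest that 4 against 3 rats allow. Il1r1 and Il1r2 had each been called, so this ratio restates their opposite changes within rats.

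Il1rn to Il1b was between 3.54 and 4.06 in Control WT, 3.61 and 4.65 in Control P1.hMR, 2.86 and 3.90 in UVB WT, and 2.28 and 3.48 in UVB P1.hMR rats. As plain TPM the antagonist was 16.6 to 50.2 times Il1b in control rats and 5.23 to 14.3 times in UVB P1.hMR rats. The difference was -1.27 in P1.hMR rats (exact permutation test, p = 0.00794, adjusted 0.0159), -0.40 in WT rats (exact p = 0.286) and -0.84 averaged (exact p = 0.00181, adjusted 0.00363). Il1b had been called in P1.hMR rats and averaged while Il1rn was not called, so this ratio restates the change of Il1b. Il1rn to Il1a did not move past the spread between rats (0.23 averaged, exact permutation p = 0.192). Il18bp to Il18 differed by -0.65 averaged (exact permutation p = 0.00794, adjusted 0.0106), by -0.71 in P1.hMR rats (exact p = 0.0397, adjusted 0.0529) and by -0.59 in WT rats (exact p = 0.171).

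**Figure D3:**
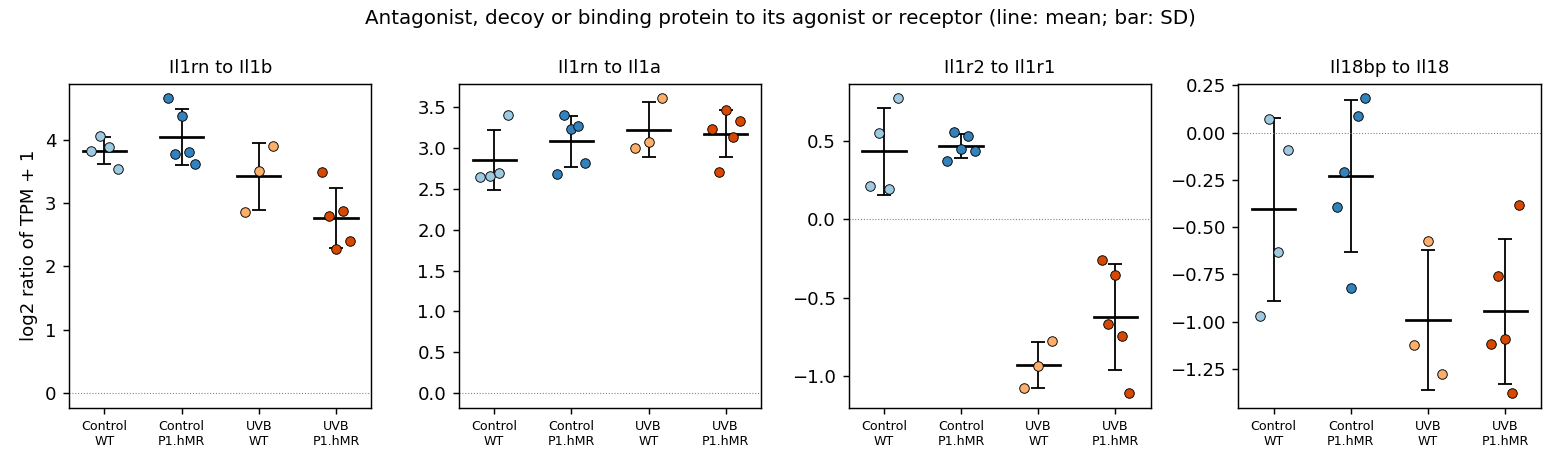
Log2 ratio of TPM + 1 in each rat (1 point per rat, line: mean, bar: SD) of antagonist, decoy or binding protein to its partner, in the 4 groups, with a dotted line at equal levels where it is within the axis. Il1r2 to Il1r1 was above 0 in all control rats (0.19 to 0.77) and below 0 in all UVB rats (-1.11 to -0.26).

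Whether the transgene altered these genes was asked within each treatment, and the interaction term compared the UVB responses of the genotypes. No member was called in any of these comparisons by limma. Between UVB P1.hMR and UVB WT 0 of 10 members were called, where 0.0229% of tested genes were, and 3 had an unadjusted p under 0.05. Il1b was 0.90 higher (SE 0.28, unadjusted p = 0.0061, limma adjusted p = 0.305), with UVB P1.hMR at 6.79 ± 2.76 TPM (SD, n = 5) and UVB WT at 3.10 ± 1.41 TPM (SD, n = 3). The groups overlapped, since UVB WT replicate 1 (4.73 TPM) was above UVB P1.hMR replicate 1 (3.22 TPM). Casp4 was 0.31 higher (SE 0.11, limma adjusted p = 0.36) and Il1rn 0.24 higher (SE 0.11, limma adjusted p = 0.459). Il18bp, from 2.36 TPM in UVB P1.hMR and up to 2.33 TPM in UVB WT rats, was the only member without overlap, a state that 5.87% of tested genes shared.

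Between Control P1.hMR and Control WT 0 of 10 members were called, against 0.00763% of tested genes, and 1 had an unadjusted p under 0.05. This was Il1rn, 0.28 higher in Control P1.hMR (SE 0.10, unadjusted p = 0.0119, limma adjusted p = 0.998), at 46.6 ± 3.98 TPM (SD, n = 5) against 38.2 ± 4.79 TPM (SD, n = 4). Control WT replicate 3, at 45.36 TPM, lay within the P1.hMR range. For the interaction 0 of 10 members and 0.0% of tested genes were called, and 2 members had an unadjusted p under 0.05. Il1b had an interaction of 0.83 (SE 0.39, unadjusted p = 0.0478, limma adjusted p = 0.711) and Casp4 of 0.35 (SE 0.15, unadjusted p = 0.0371, limma adjusted p = 0.711). The larger UVB change of Il1b in P1.hMR than in WT rats did not pass this test, nor did the difference for Il1r2 (0.38, SE 0.29). The comparisons between genotypes and those under UVB share groups and are not independent.

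Other genes of the pathway were taken from lists by role. Over all tested genes, 4.6% were called higher and 4.88% lower with the averaged UVB effect. Among other IL-1 family ligands and receptors, 4 of 8 tested genes were called higher and 1 lower with the averaged UVB effect, with a median log2 fold change of 0.36 against -0.01 for all tested genes. The epithelial IL-36 ligands Il36a and Il36g led. Il36a went from a mean of 0.12 TPM in Control WT and 0.23 TPM in Control P1.hMR to 2.41 and 4.44 TPM under UVB (log2 fold change 1.81, SE 0.21). Il36g was at 1.41 (SE 0.18). The remaining IL-36 ligand, Il36b, was not called (-0.20, SE 0.16). Its group means were 9.6 and 9.4 TPM in WT and P1.hMR controls and 8.3 and 8.6 TPM under UVB. The IL-36 receptor Il1rl2 rose by 0.75 (SE 0.09), as did Sigirr, an inhibitory receptor of the family, by 0.88 (SE 0.16). Il1f10, which encodes IL-38, fell by 0.87 (SE 0.16). The IL-36 antagonist Il36rn had a value of -0.02 (SE 0.12) and was not called. Il1rl1, the IL-33 receptor, and Il18rap were under the filter and not tested. Il36a was at 0.63 TPM or less in control rats, so it passed the filter, and entered these counts, only through the UVB rats.

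Among inflammasome and processing genes, 2 of 14 tested genes were called higher and 2 lower, against 4.6% and 4.88% of all tested genes. Gsdmc, a gasdermin, rose by 1.43 (SE 0.13) and Ninj1, which ruptures the membrane of dying cells, by 0.63 (SE 0.06). Gsdma, a gasdermin of skin epithelium, fell by 0.93 (SE 0.11) and Txnip, a thioredoxin inhibitor, by 0.72 (SE 0.10). Casp1, which cleaves pro-IL-1β, had a value of -0.46 (SE 0.07, limma adjusted p = 7.24e-05) and Pycard, the inflammasome adaptor, of -0.48 (SE 0.12), both under the fold threshold. Gsdmd, which encodes gasdermin D, went the other way at 0.36 (SE 0.09, limma adjusted p = 0.00322), also under the fold threshold. Casp1, Pycard and Gsdmd were chosen after their values were seen. The sensors Nlrp3, Nlrc4 and Aim2 were under the filter and not tested.

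Of the IL-1 receptor signalling genes (adaptors, kinases and NF-κB subunits), 0 of 28 were called by limma with the averaged effect, although 16 had an adjusted p under 0.05 (16 also unadjusted), and their log2 fold changes lay between -0.45 and 0.34. In P1.hMR rats 1 was called, Nfkbiz (IκBζ), at -0.55 (SE 0.17), where 10.8% of all tested genes were called. Of the genes known to respond to IL-1, 15 of 25 were called higher and 1 lower, against 4.6% and 4.88% of all tested genes, with a median of 0.75. They included the antimicrobial proteins Lcn2 (3.09, SE 0.55) and Defb4 (2.16, SE 0.14), the monocyte chemokine Ccl2 (1.98, SE 0.20) and the neutrophil chemokines Cxcl3 (1.71, SE 0.31) and Cxcl6 (1.70, SE 0.21). Nos2, inducible nitric oxide synthase, fell by 1.40 (SE 0.18). Lcn2 varied widely, from 0.35 to 30.39 TPM among UVB P1.hMR rats. Other cytokines also induce many of these genes. Ptgs2, Mmp9 and Mmp10 were at most 0.28, 0.42 and 0.31 TPM in control rats, so they passed the filter only through UVB rats. Cxcl2, Cxcl3, Cxcl6, Mmp13 and Tslp also needed UVB rats to pass, as fewer than 3 control rats reached 1 TPM. Genes this low in control rats were tested only where UVB rats reached 1 TPM, so the count and the median may lean upward. Between UVB P1.hMR and UVB WT limma called 0 genes of these 4 lists, where 1, 2, 3 and 0 had an unadjusted p under 0.05 in the order given. It also called 0 between control groups, where 2 signalling genes did, and 0 for the interaction, where 3 signalling genes did.

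**Figure D4:**
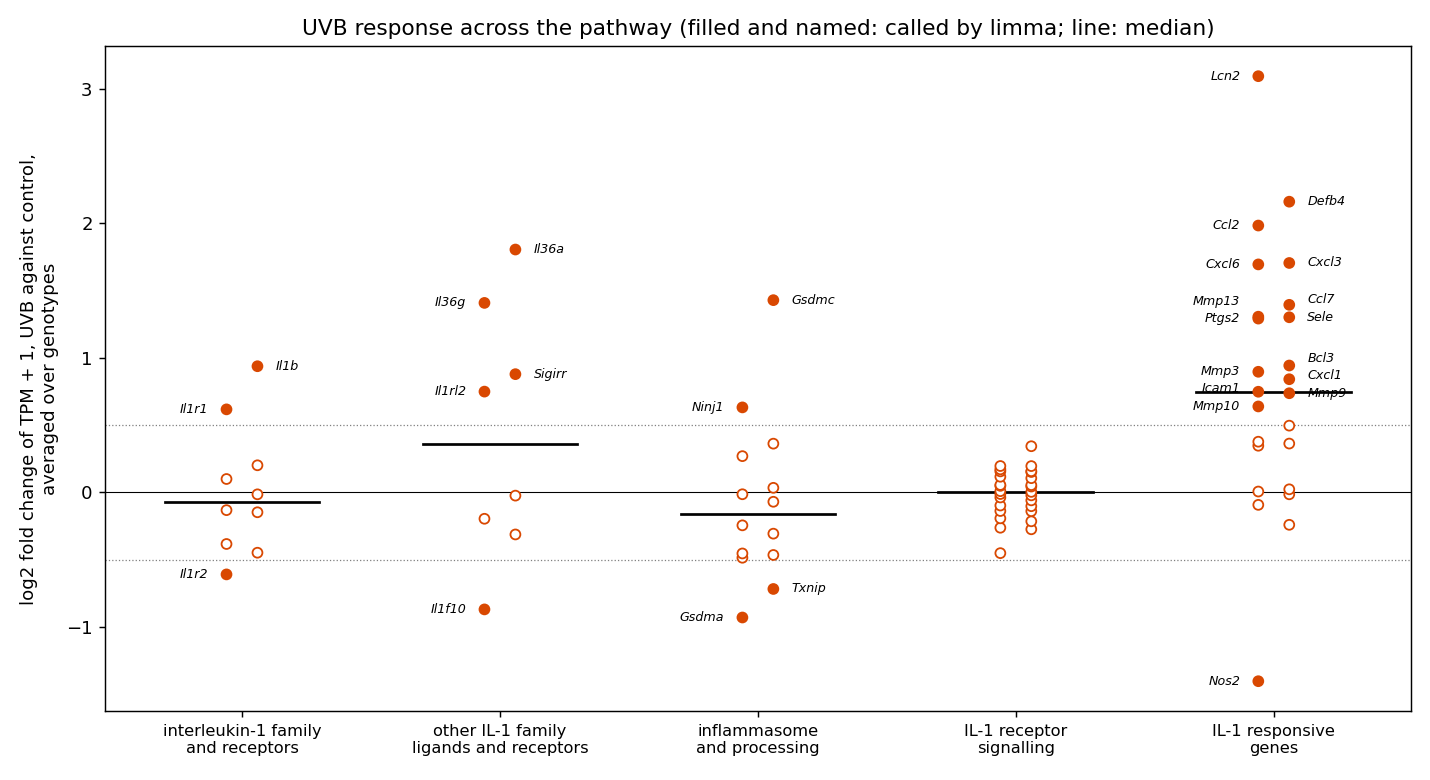
Averaged UVB effect (log2 fold change of TPM + 1) of each tested gene of the members and of the 4 pathway lists, filled and named where limma called the gene, with a line at the list's median and dotted lines at 0.5 and -0.5. The IL-1 responsive genes had a median of 0.75 with 16 of 25 called, and the signalling genes none of 28, against 9.48% of all tested genes.

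Under UVB some markers of cell types were called higher and others lower. Fewer cells of a type and less RNA per cell cannot be told apart in bulk tissue. For the counts that follow, 3.92% of all tested genes were called higher and 3.98% lower in WT rats. In P1.hMR rats these shares were 5.05% and 5.71%. All 12 macrophage and monocyte markers were in the table, none at 0 in every rat, and 7 in WT and 8 in P1.hMR rats were called higher with none lower. Their summed level was 121 to 231 TPM in Control WT, 128 to 217 in Control P1.hMR, 189 to 321 in UVB WT and 261 to 357 TPM in UVB P1.hMR rats. Cd163 rose from a mean of 1.01 to 11.7 TPM in P1.hMR rats, while Csf1r was at 14.4 and 13.3 TPM. Cd68 was lower under UVB, with means of 39.8 and 30.1 TPM in WT and 37.9 and 30.7 TPM in P1.hMR rats. Adgre1 was at 1.30 and 1.00 TPM in P1.hMR rats and at 0.91 and 1.01 TPM in WT rats. The summed level of 8 mast cell markers was 21.6 to 32.1 TPM in control and 39.7 to 67.6 TPM in UVB rats. Of the neutrophil markers 11 were measured and 4 passed the filter for testing, and 1 in WT and 2 in P1.hMR rats were called higher with none lower. Csf3r, the receptor of the neutrophil growth factor G-CSF, was at 0.05 to 0.16 TPM in Control WT and 0.51 to 1.71 TPM in UVB WT rats. It was at 0.10 to 0.40 TPM in Control P1.hMR and 1.14 to 2.55 TPM in UVB P1.hMR rats. Neither genotype overlapped, as for 26.6% (WT) and 27.2% (P1.hMR) of tested genes, and Csf3r passed the filter only through UVB rats. Fpr1 went the other way, from a mean of 0.23 to 0.05 TPM in WT and 0.30 to 0.10 TPM in P1.hMR rats. Ngp did too, from 0.14 to 0.07 TPM and from 0.64 to 0.11 TPM. The neutrophil granule genes Mpo and Elane were among 5 of these markers under 1 TPM in every rat, and the summed level of 1566 to 1918 TPM in control and 1843 to 2824 TPM in UVB rats rested on S100a8 and S100a9, which keratinocytes also express. The meibocyte sum was 44895 to 55453 TPM in control and 39419 to 48317 TPM in UVB rats. Of 11 hair keratins none was called higher, while 10 were called lower in the WT and 8 in the P1.hMR comparison, and their summed level was 791 to 1511 TPM in control and 355 to 961 TPM in UVB rats. Of 7 fibroblast markers 4 were called higher in each genotype, with 1 lower in P1.hMR rats, and their summed level was 972 to 1625 TPM in control and 1283 to 2033 TPM in UVB rats. Of 5 melanocyte markers 4 were called lower in WT rats and 0 by limma in P1.hMR rats, where 3 had an unadjusted p under 0.05, and this difference was not tested. T cell markers were called higher for 2 of 5 in each genotype and endothelial markers for 1 of 6. Of 9 suprabasal and stressed keratinocyte markers 2 were called higher and 1 lower in each genotype, and of 6 basal keratinocyte markers 0 were called by limma, with 4 in WT and 5 in P1.hMR rats at an unadjusted p under 0.05. Of 6 Langerhans and dendritic markers 1 in WT and 2 in P1.hMR rats were called higher and 1 lower in each, and of 8 skeletal muscle markers 1 was called lower in P1.hMR rats and 0 by limma in WT rats, where 1 had an unadjusted p under 0.05. The part of these cell types in the changes of Il1b, Il1r1 and Il1r2 was not tested.

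**Figure D5:**
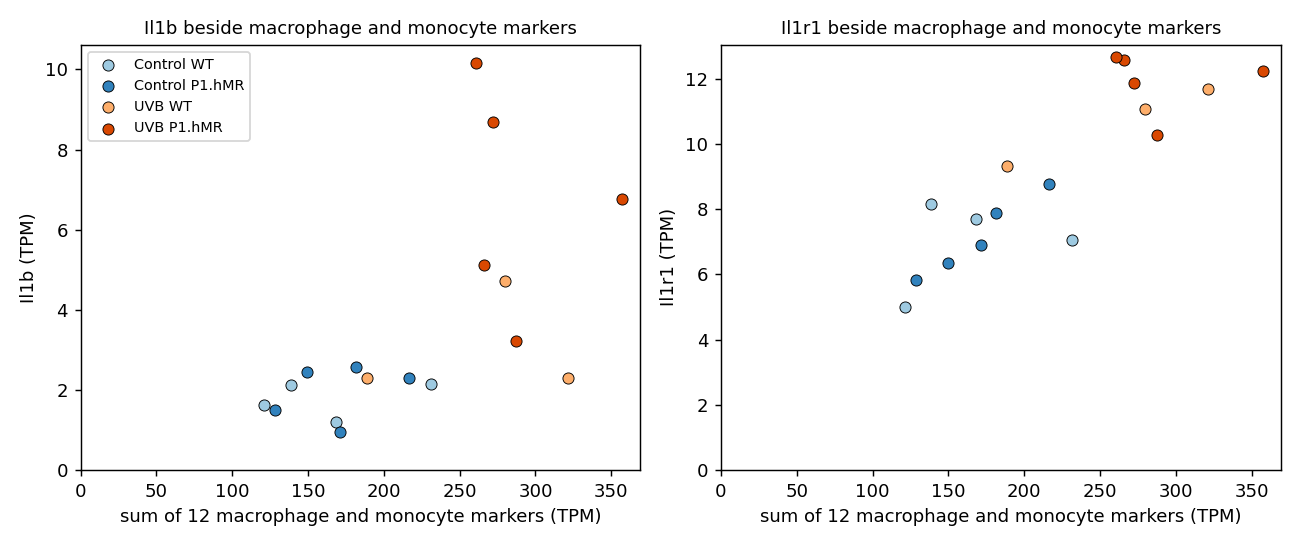
TPM of Il1b (left) and Il1r1 (right) against the summed TPM of 12 macrophage and monocyte markers, with 1 point per rat and colours for the 4 groups. The sum was 121 to 231 TPM in control and 189 to 357 TPM in UVB rats, and Il1b was at 0.96 to 2.58 TPM and 2.29 to 10.16 TPM. The relation of either gene to the sum was not tested.

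Among rats of a group, the likeness of members was described by Pearson's r of log2(TPM + 1) over the 17 rats after removal of group means. Over the pairs of members it ranged from -0.49 (Il1a and Il1r2) to 0.68 (Il1r1 and Il1r2), the latter positive although their UVB effects had opposite signs. Of all tested genes the closest to Il1b were Chst11 (0.86), Rraga (0.86) and Ptgs2 (0.85), the last the inducible cyclooxygenase. The closest to Il1r1 were Cst6, Reln and Foxn3 (each 0.84), and to Il1r2 Clec1a (0.91), B4galt6 (0.87) and Nt5e (0.85). For the remaining 7 members the 3 closest genes had r between 0.73 and 0.87. All values of a rat come from 1 library and share its depth and mix of cells, and these genes were picked as the highest of 13105.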

How the data were processed

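RNA from the MG of 17 rats was sequenced and the authors deposited TPM for each gene, with 2 decimals and a decimal comma. Per the methods reads were aligned to rn7 with STAR and quantified with RSEM; the submitters' processing notes name FastQC, Trimmomatic, DRAGEN and Picard. No further normalization is stated. Groups came from the labels. The 13105 of 17251 genes that reached 1 TPM in 3 or more rats were tested as log2(TPM + 1) with limma 3.58.1 in R 4.3.3, in 1 model with a mean per group and a variance trend, two-sided, adjusted by Benjamini-Hochberg over all tested genes. The thresholds were the study's, but its count test was not used because TPM are not counts. Ratios were tested by exact permutation in Python 3.11.15 with numpy 2.4.6, p-values adjusted over the 4 ratios. The limma step was tested on simulated data. The methods give a range of mapped reads for the sequencing but no value per library, and TPM keeps no counts, so no counting error was computed. The genes, gene lists and named-gene rule (all members; up to 6 called genes of a list with the largest change; the 3 genes most like a member) were chosen with earlier results of these data known. Promoters and neighbours came from RefSeq GRCr8, matched by symbol. Protein sequences were not used here.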

Additional observations from a re-analysis of the deposited data

Results flagged for a closer look

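Each member was checked in each group of 4 or more rats for a rat far from the others, 30 groups in all, and 3 stood apart; chance alone gives about 1 in 20 groups. Il1rn was at 45.36 TPM in Control WT replicate 3, where the other rats were at 35.60 to 36.20 TPM. Il1rap was at 11.47 TPM in the same rat, against 9.56 to 9.71 TPM. Il18bp was at 2.73 TPM in Control P1.hMR replicate 3, against 4.08 to 4.75 TPM. Without Control P1.hMR replicate 3 the UVB value of Il18bp in P1.hMR rats was -0.55, past both thresholds, in place of -0.45.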

How the results depend on the processing

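The direction of Il1b, Il1r1, Il1r2, Il18bp and Il33 under UVB was the same under every alternative run. Members called in WT rats were 0 with only the groups compared (limma adjusted p 0.0517 for Il1r1 and 0.0615 for Il1r2), 0 at a fold threshold of 1, and 1 to 2 when each rat was left out. In P1.hMR rats the count was 1 with a mean of at least 5 TPM, a filter that Il1b does not pass, 4 with no fold threshold and 1 at a fold threshold of 1. For the averaged effect it was 5 with no fold threshold and 0 at 1. With a pseudocount of 0.1, Il18bp was called in P1.hMR rats (-0.56) and averaged (-0.57), and without Control WT replicate 1 in WT rats (-0.61). The Il18bp to Il18 ratio in P1.hMR rats passed (adjusted exact permutation p = 0.0423) at that pseudocount and without Control P1.hMR replicate 3 or UVB P1.hMR replicate 5. The fit of only the groups compared has no value for the averaged effect or the interaction.

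Counts in the lists, averaged over the genotypes, were as follows. Other IL-1 family genes called were 3 with a mean of at least 5 TPM and 2 at a fold threshold of 1. Inflammasome genes called were 7 at a pseudocount of 0.1, 10 with no fold threshold and 1 at 1. Signalling genes called were 16 with no fold threshold and 0 to 1 when each rat was left out, and responsive genes 9 with a mean of at least 5 TPM and 10 at 1.

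Values near 0 changed sign; none was called. These were Il1rap in WT rats (-0.00079 with array weights) and averaged (0.014 with quantile normalization), and Il1a in P1.hMR rats (0.0062 with quantile normalization, 0.0024 with median-of-ratios scaling). Between control groups they were Il1r1 (-0.040), Il1r2 (-0.023) and Il18 (0.023) with array weights. When each rat was left out, the values of results that changed sign ran from -0.037 to 0.079 for Il1rap and WT UVB, -0.12 to 0.099 for Il1a and -0.015 to 0.093 for Casp4 and P1.hMR UVB, and -0.042 to 0.015 for Il1rap averaged. Between UVB groups they ran from -0.093 to 0.0040 for Il1rap and -0.062 to 0.25 for Il18. Between control groups they ran from -0.16 to 0.19 for Il1a, -0.039 to 0.21 for Il1b, -0.094 to 0.11 for Il1r1, -0.13 to 0.20 for Il1r2, -0.022 to 0.073 for Il1rap, -0.079 to 0.092 for Il18 and -0.098 to 0.030 for Casp4. For the interaction they ran from -0.14 to 0.063 for Il1rn, -0.059 to 0.26 for Il18, -0.11 to 0.16 for Il18bp and -0.11 to 0.11 for Il33. For the ratios they ran from -0.0078 to 0.21 for Il1rn to Il1a in P1.hMR rats, and between UVB groups from -0.17 to 0.14 for Il1rn to Il1a and -0.097 to 0.26 for Il18bp to Il18.

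With the replicate number as a block, members called were again 2 in WT, 2 in P1.hMR and 3 averaged, and 0 between genotypes and for the interaction. Its sign changes were Il1b (-0.013), Il1rap (-0.00049) and Il18 (0.10) between control groups and Il18bp (-0.047) and Il33 (-0.037) for the interaction. The numbers did not pair the rats: deviations of same-numbered rats had a median correlation of -0.0051, over 0.1 in 4 of 22 pairs. The 2 filters on low values were tried on single members after the data were seen.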
